A study of Mus musculus with 6 samples.

Results

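H19 and 8 other imprinted genes, Igf2, Igf2r, Airn, Meg3, Rian, Peg3, Cdkn1c and Kcnq1ot1, were followed in RNA of mouse heart muscle cells with and without a knockdown of Acly. These 9 genes were taken by name, with their own rows among the 46078 features counted in every library and with the rows of features whose exons overlap theirs on the other strand. H19 was picked with its lower value in the knockdown already known, so every difference between the groups given for these genes is a description and supports nothing. The knockdown libraries (Acly_KD, n = 3) came from cardiomyocytes labelled Acly-KD, made with MyH6-Cas9 mice, in which a heart muscle promoter drives the nuclease Cas9; the control libraries (n = 3) came from cardiomyocytes labelled wildtype. All cells were isolated by perfusion of the heart. The sources used here do not give the age or sex of the mice, the way the guide was delivered, or whether the controls carried Cas9, nor whether each library is a separate animal, so the spread between libraries may be technical.

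Imprinted genes are transcribed from the copy of one parent, and many sit in clusters governed by a single methylated control region. H19 is a long noncoding RNA of the maternal copy and the host of miR-675, and its neighbour Igf2, a growth factor, is transcribed from the paternal copy under the same control region. Igf2r encodes the receptor that removes IGF2, and the noncoding RNA Airn silences it in cis. Meg3 and Rian are maternal noncoding RNAs of the Dlk1-Dio3 cluster. Kcnq1ot1 is a paternal noncoding RNA that silences Cdkn1c, an inhibitor of the cell cycle, and Peg3 encodes a paternally transcribed zinc finger protein. In the mouse heart, H19 and Igf2 are abundant before birth and decline afterwards.

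The Acly_KD libraries held 460222 to 799868 reads in features and the control libraries 271463 to 814765, which was 2.81% to 3.07% of the uniquely aligned reads. The counts look swapped in strand, so an imprinted RNA is sought in the row of a feature that lies opposite to its exons, and a gene's own row holds reads of the other strand. Acly itself received 0 reads in each Acly_KD library and 1, 5 and 6 reads in control libraries 1 to 3, again reads of the strand opposite to its mRNA. Rows with exons opposite to Xist held 149 and 137 reads in control replicates 2 and 3. They held 0 in control replicate 1 and in all 3 Acly_KD libraries. For every gene the contrast of the groups is thus partly confounded with this split, and what the split reflects was not tested.

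H19 lies on chromosome 7 from 142575529 to 142578143 (mm10, minus strand) and has 3 exons. It was read through a pair of short features on the plus strand, both inside its first exon and both annotated as predicted noncoding RNA. Gm27786 covers 70 bases, from base 226 to base 295 of H19, and Gm27483 covers 71 bases, from base 1221 to base 1291. Together they reach 141 of the 2460 exonic bases of H19, or 5.73%. The 925 bases between them exceed the library fragment size of 250 to 300 bp given in the labels, so 1 fragment of the exon would not reach both. Between them lies the hairpin of miR-675, from base 997 to base 1080. The stretches are shown in the direction of H19, since all H19 values rest on fragments that touch them; capitals mark the counted stretch and lower case the 20 bases on either side. Gm27786 with its sides is chr7:142577829-142577938 and Gm27483 with its sides is chr7:142576833-142576943, minus strand, from the GENCODE M21 transcript of H19.
Gm27786 stretch: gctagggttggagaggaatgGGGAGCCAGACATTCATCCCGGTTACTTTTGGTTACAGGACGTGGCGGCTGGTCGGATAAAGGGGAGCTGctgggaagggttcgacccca
Gm27483 stretch: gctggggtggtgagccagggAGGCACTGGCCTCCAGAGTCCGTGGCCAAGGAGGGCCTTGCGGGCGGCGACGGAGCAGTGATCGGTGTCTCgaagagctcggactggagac

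The mature products of the hairpin, from RefSeq on GRCm38.p6, are given because they are the part of H19 with a known target-pairing role; capitals mark the seed, bases 2 to 8. Their seeds differ. The Mir675 row, which lies on the strand of H19, held 0 reads in all 6 libraries. It is among 13 rows of small RNAs inside exons of H19, Meg3 and Rian on the host's strand, each at 0. If the counts are strand-swapped, such rows hold RNA opposite to the host. Their 0 does not measure miR-675 or the other small RNAs.
mmu-miR-675-5p: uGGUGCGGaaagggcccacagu
mmu-miR-675-3p: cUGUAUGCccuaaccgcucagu

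**Figure D1:**
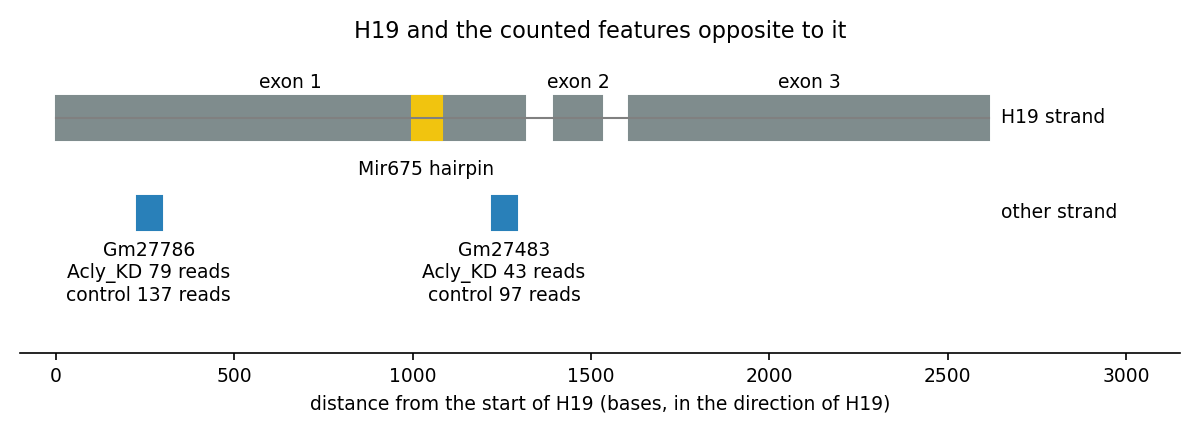
Map of H19 drawn to scale, with the distance in bases from its start on the x axis. Grey boxes are exons, the yellow box is the miR-675 hairpin, and blue boxes are the counted features on the other strand, with their reads summed over the 3 libraries of each group: 79 in Acly_KD and 137 in control for Gm27786, and 43 in Acly_KD and 97 in control for Gm27483.

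Over both stretches H19 collected 39, 37 and 46 reads in Acly_KD libraries 1 to 3, against 50, 73 and 111 reads in control libraries 1 to 3. The shallowest library, control replicate 1, thus held more H19 reads than any Acly_KD library. As CPM, the count relative to a library size that TMM scaled over the 1453 genes tested in the opposite-strand reading, H19 stood at 109, 168.7 and 116 in Acly_KD libraries 1 to 3, against 356, 169.5 and 303 in control libraries 1 to 3. The groups did not overlap, but Acly_KD replicate 2 and control replicate 2 had almost the same value. The means were 131 ± 32.6 CPM in Acly_KD and 276 ± 95.9 CPM in control (SD, n = 3 each). The log2 fold change was -1.05 (SE 0.28, 95% interval -1.63 to -0.48). Scaled to all uniquely aligned reads in place of the reads in features, H19 had a CPM of 1.63, 2.35 and 1.76 in Acly_KD libraries 1 to 3 and 5.49, 2.73 and 4.53 in control libraries 1 to 3, again with no overlap. That the groups lie apart depends on the scale: on the CPM scale of the features as deposited, the same reads gave 59.9, 90.4 and 57.5 CPM in Acly_KD libraries 1 to 3 and 182.1, 86.4 and 159.6 CPM in control libraries 1 to 3, where Acly_KD replicate 2 lay above control replicate 2 and the groups overlapped.

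The stretches were also compared one at a time, on the CPM scale of the features as deposited. Gm27786, near the 5′ end of H19, had 38.4, 58.6 and 37.5 CPM in Acly_KD libraries 1 to 3 and 98.3, 52.1 and 94.9 CPM in control libraries 1 to 3. Here Acly_KD replicate 2 lay above control replicate 2, and the log2 fold change was -0.86 (SE 0.35). Gm27483, near the end of the first exon, had 21.5, 31.7 and 20 CPM in Acly_KD libraries 1 to 3 and 83.7, 34.3 and 64.7 CPM in control libraries 1 to 3. These groups did not overlap, and the log2 fold change was -1.29 (SE 0.42). Gm27786 took 64.8% of the H19 reads in Acly_KD (exact 95% interval 55.6% to 73.2%) and 58.5% in control (51.9% to 64.9%), intervals that overlap and that cover counting error only.

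Within the control group H19 varied by library. Its value was highest in control replicate 1, which had no reads opposite to Xist, and control replicates 2 and 3, which did, lay at 169.5 and 303 CPM. With a term for the libraries with such reads, added after the data were seen, the log2 fold change of H19 was -1.47 (SE 0.39). It then rests on control replicate 1 against the Acly_KD libraries.

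Meg3 (chromosome 12, 109541001 to 109571726, plus strand) was read through Gm26906, a long noncoding RNA feature on the minus strand. All 1228 exonic bases of Gm26906 lie opposite to Meg3 exons, near the 3′ end of the gene, and make up 6.79% of the 18089 exonic bases of Meg3. Gm26906 held 5, 5 and 11 reads in Acly_KD libraries 1 to 3 and 11, 21 and 19 reads in control libraries 1 to 3. These are 14.0, 22.8 and 27.8 CPM in Acly_KD libraries 1 to 3 and 78.3, 48.8 and 51.8 CPM in control libraries 1 to 3 on the scale of the opposite-strand reading. Meg3 did not overlap between the groups, with 21.5 ± 7.01 CPM in Acly_KD and 59.6 ± 16.2 CPM in control (SD, n = 3 each). The log2 fold change was -1.38 (SE 0.48, 95% interval -2.37 to -0.39) and rests on 21 reads in Acly_KD and 51 in control. The Meg3 row itself held 0 reads in every library.

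**Figure D2:**
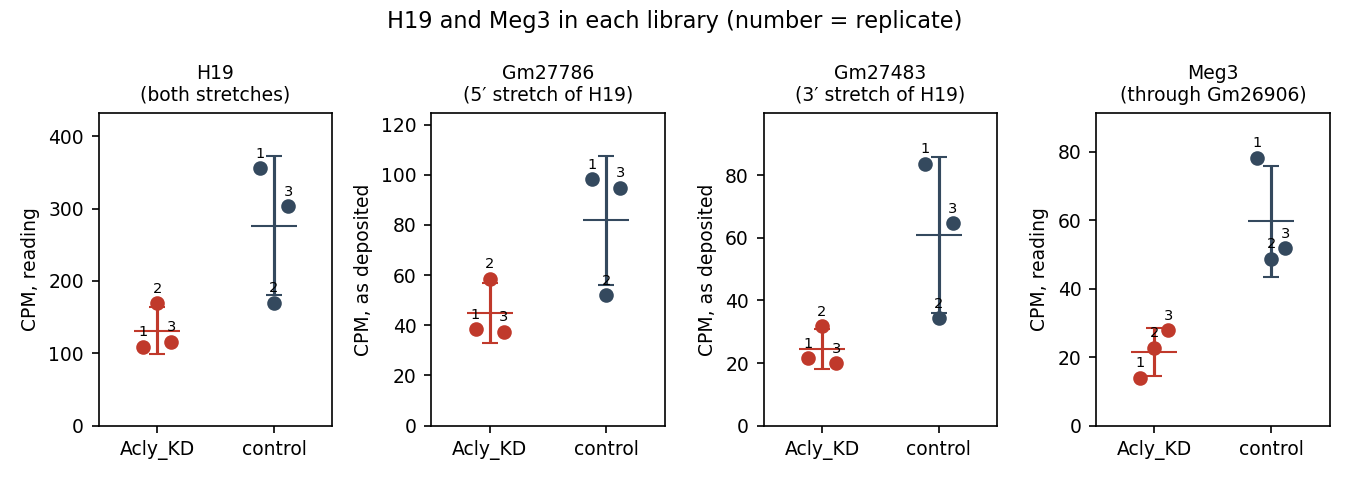
CPM of H19, of its stretches Gm27786 and Gm27483, and of Meg3 in each library, Acly_KD on the left and control on the right of each panel. Points are libraries with their replicate number, and the bar and whiskers are the mean and SD of 3 libraries. Acly_KD replicate 2 and control replicate 2 meet at 168.7 and 169.5 CPM for H19 and overlap for Gm27786, while for Meg3 all Acly_KD libraries lie below 30 CPM and all controls above 40 CPM.

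H19 and Meg3 were the only ones of the 9 genes with enough reads to be tested in the opposite-strand reading, and 0 of these were called at 0.05 by the quasi-likelihood fit of edgeR after adjustment (Benjamini-Hochberg) over all 1453 genes. Both had an unadjusted p under 0.05, as did 125 of the 1453 genes (8.6%), and DESeq2 called 0 of them. Over all genes tested, 0.413% were called in either direction, and groups lay apart with the lower values in Acly_KD for 6.61% of genes; both H19 and Meg3 were in that share on this scale, from which nothing is read, since H19 was picked on this contrast. H19 was called in 2 of the 15 alternative settings. These were without control replicate 2, at a log2 fold change of -1.34, and with no filter on low counts. The call thus depends on the library left out and on the filter. Reads of H19 or Meg3 and reads of an RNA that is transcribed opposite to Gm27786, Gm27483 or Gm26906 but is not H19 or Meg3 cannot be told apart here, nor can less RNA per cell and fewer cells of a type in these bulk samples.

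**Figure D3:**
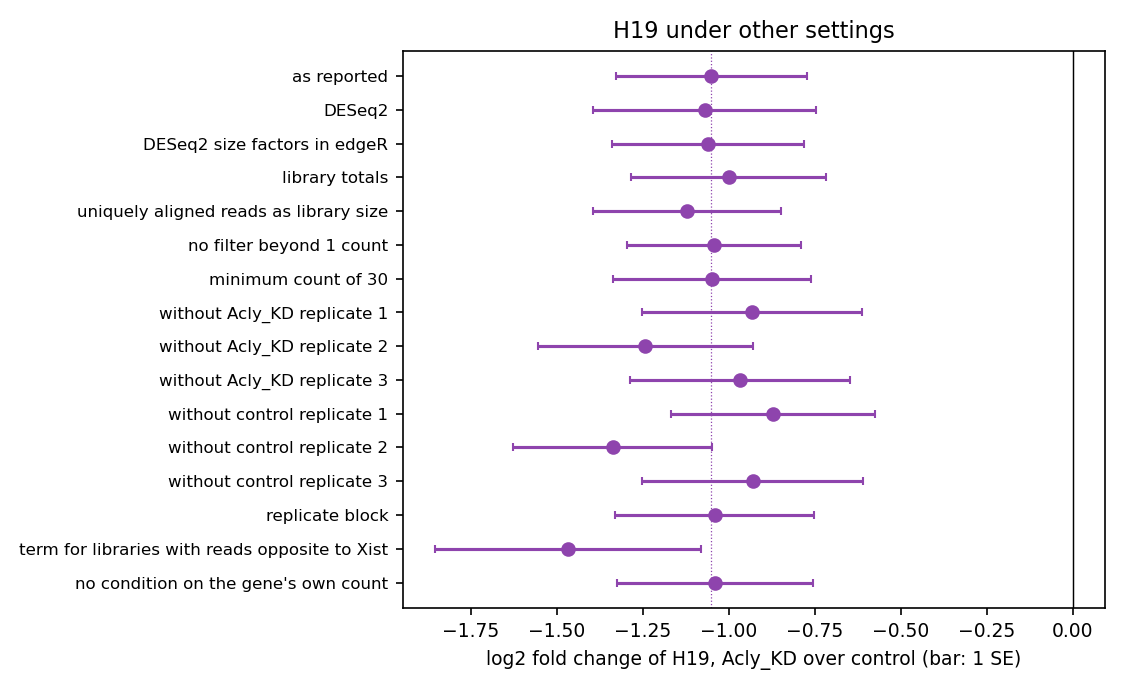
Log2 fold change of H19 (x axis, Acly_KD over control) as reported and under 15 other settings, with bars of 1 SE. The values run from -1.47, with a term for libraries with reads opposite to Xist, to -0.87, without control replicate 1.

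Kcnq1ot1 (chromosome 7, 143203458 to 143296549, minus strand) had the most reads of the 9 genes in its own row, but that row is not a measure of Kcnq1ot1 RNA if the counts are of the opposite strand. The gene is a single exon of 93092 bases inside Kcnq1, which encodes a cardiac potassium channel and runs the other way, so most of the row lies opposite to Kcnq1 introns and 121 bases lie opposite to a Kcnq1 exon. The row held 88, 53 and 129 reads in Acly_KD libraries 1 to 3 and 37, 100 and 122 reads in control libraries 1 to 3. As deposited, these were 135, 129 and 161 CPM in Acly_KD libraries 1 to 3 and 135, 118 and 175 CPM in control libraries 1 to 3, and the groups overlapped. The log2 fold change of -0.01 had a 95% interval of -0.48 to 0.47 and changed sign in 9 of 15 alternative settings. RNA of Kcnq1ot1 itself would be counted in the 5 rows opposite to it, Kcnq1 and 4 predicted RNAs (Gm27395, Gm27389, Gm27803 and Gm27539), which cover 1119 of its bases. They held 2, 0 and 1 reads in Acly_KD libraries 1 to 3 and 1, 1 and 2 reads in control libraries 1 to 3, too few to read.

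Igf2 could not be read. Its own row held 0, 0 and 1 reads in Acly_KD libraries 1 to 3 and 1, 2 and 1 reads in control libraries 1 to 3. Igf2os, the noncoding RNA on the other strand, shares 98 exonic bases with Igf2 and 1142 with Gm49394, a second gene model on the Igf2 strand. Its row held 3, 4 and 4 reads in Acly_KD libraries 1 to 3 and 3 to 5 reads in each control library, 11 reads in Acly_KD and 12 in control. At this depth no difference in Igf2 was detectable.

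Igf2r and Airn have no exons in common on opposite strands, so neither spliced RNA has a row opposite to it. The Igf2r row held 8, 6 and 15 reads in Acly_KD libraries 1 to 3 and 6, 22 and 6 reads in control libraries 1 to 3. The groups overlapped, with a log2 fold change as deposited of -0.27 and a 95% interval of -1.45 to 0.91. Without control replicate 2 the value was 0.18, on the other side of zero. Of the 9308 exonic bases of Igf2r, 519 lie within the span of Airn, so with a swapped strand unspliced Airn would be counted in the Igf2r row, and other reads there cannot be told apart from it. The Airn row held 1 read in Acly_KD and 1 in control.

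Cdkn1c faces one annotated feature, Gm44732, which has no row in the count tables used here, so its mRNA was not analysed here. Its own row held 0, 3 and 9 reads in Acly_KD libraries 1 to 3 and 0, 9 and 8 reads in control libraries 1 to 3, with a 0 in each group. Rian and Peg3 have no annotated exon opposite to them. The Rian row held 2 reads in Acly_KD, both in replicate 3, and 0 in control, where 3 reads per library correspond to 3.55 to 10.9 CPM. The Peg3 row held 2 reads in Acly_KD and 3 in control. The H19 row itself held 0, 3 and 0 reads in Acly_KD libraries 1 to 3 and 0, 2 and 6 reads in control libraries 1 to 3. In all, 2 of the 9 own rows (Kcnq1ot1 and Igf2r) and 3 of the 9 opposite-strand rows passed the filter on low counts. As deposited, 0% of 2952 features were called in either direction by edgeR or by DESeq2, with 180 at an unadjusted p under 0.05 in edgeR. For Kcnq1ot1 and Igf2r, 0 had an unadjusted p under 0.05 and both overlapped between the groups. Of the 3 opposite-strand rows, Gm27483 and Gm26906 lay apart with the lower values in Acly_KD, as did 5.56% of all features; 5.83% lay apart with the higher values there.

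**Figure D4:**
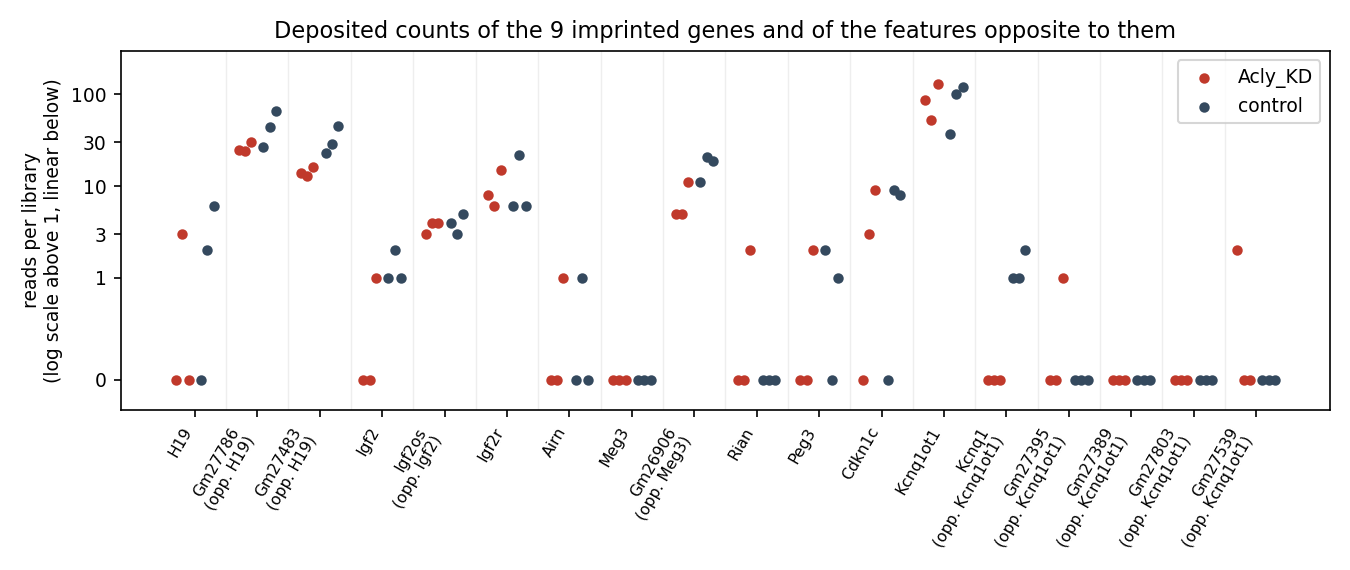
Reads per library in the own rows of the 9 genes and in the rows opposite to them (labelled opp.), on a scale that is logarithmic above 1 and linear below, with Acly_KD points left of control points. Rows for H19 and Meg3 RNA (Gm27786, Gm27483 and Gm26906), Igf2r and Kcnq1ot1 hold 5 or more reads in every library, and the rows of Airn, Meg3, Rian, Peg3 and Igf2 hold 2 or fewer.

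Other imprinted genes were taken from a list of 58, written from general knowledge with the results for H19 known. Of the 56 with a row of their own, 21 had 0 reads in that row over all libraries and 20 had 1 to 10 reads. These own rows hold reads of the other strand, so a low count there does not show that the gene's RNA was low. In the opposite-strand reading 6 of the 58 were tested, with 3 above zero and 3 below, and 0 passed in either direction by edgeR or DESeq2; 2 had an unadjusted p under 0.05, which 8.6% of all genes had. The median log2 fold change of the 6 was 0.003, beside 0.0051 over all 1453 genes.

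Gnas, which encodes the stimulatory G protein subunit of adrenergic signalling, was the most abundant. Read through 1469 bases opposite to Gm20721, it had 52160 ± 3710 CPM in Acly_KD and 50260 ± 2439 CPM in control (SD, n = 3 each). Its log2 fold change was 0.05, with a 95% interval of -0.12 to 0.23. Scaled by uniquely aligned reads it was -0.02. Cd81, a tetraspanin gene of the Kcnq1ot1 cluster, was read through the whole row of R74862. Of the 3889 exonic bases of R74862, 104 lie opposite to Cd81. Cd81 had 1237 ± 93.7 CPM in Acly_KD and 1277 ± 96.9 CPM in control. The interval of its log2 fold change was -0.32 to 0.22.

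Ube3a encodes a ubiquitin ligase that is maternally transcribed in neurons, where the paternal antisense RNA Snhg14 silences it. Of the 26093 exonic bases of Snhg14, 1803 lie opposite to Ube3a exons, and the whole deposited Snhg14 row is read as Ube3a. Ube3a had 1516, 1673 and 1112 CPM in Acly_KD libraries 1 to 3, against 1096, 1026 and 968 CPM in control libraries 1 to 3. The groups did not overlap, as for 8.12% of all genes with the higher values in Acly_KD, and Acly_KD replicate 3 lay close to control replicate 1. The log2 fold change was 0.48 (SE 0.15, adjusted p = 0.181 in edgeR, 0.0221 to 0.736 over the alternatives), and the gene was called in 1 of them, without Acly_KD replicate 3, at 0.64. On the scale of the features as deposited the Snhg14 row overlapped between the groups, with 550 CPM in Acly_KD replicate 3 and 561 CPM in control replicate 1.

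Zrsr1 is a paternally transcribed gene within the span of Commd1, on the other strand, and was read through the whole Commd1 row. Of the 5936 exonic bases of Commd1, 412 lie opposite to Zrsr1. Zrsr1 had 204, 274 and 379 CPM in Acly_KD libraries 1 to 3 and 349, 457 and 409 CPM in control libraries 1 to 3. The groups overlapped, and the log2 fold change was -0.52 (SE 0.21, adjusted p = 0.408 in edgeR). H13, a signal peptide peptidase gene, and Copg2, a coatomer subunit gene that overlaps the imprinted gene Mest tail to tail, had log2 fold changes of -0.21 (95% interval -0.60 to 0.19) and 0.12 (-0.60 to 0.85). The rows read as H13 and Copg2 have 760 of 1787 and 912 of 3945 exonic bases opposite to these genes. The sign of Copg2 changed in 2 of 16 alternative settings.

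**Figure D5:**
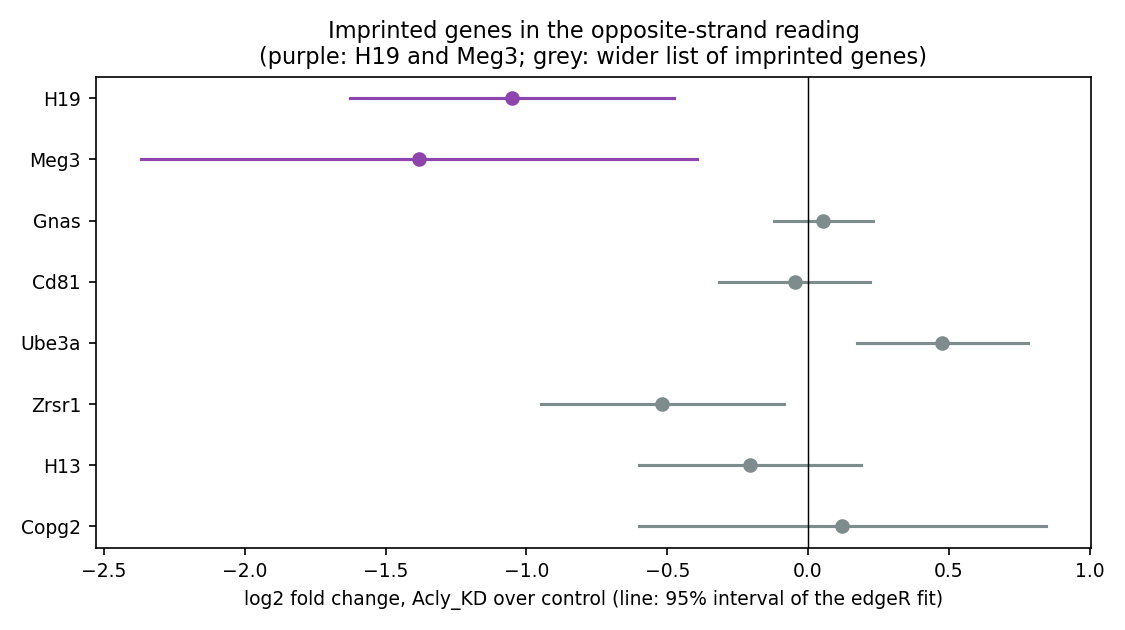
Log2 fold changes (x axis, Acly_KD over control) of imprinted genes in the opposite-strand reading, with 95% intervals of the edgeR fit as lines. The values are -1.05 for H19 and -1.38 for Meg3, in purple, and run from -0.52 for Zrsr1 to 0.48 for Ube3a among the 6 genes of the wider list, in grey.

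In their own rows, 6 of the 58 genes were tested, with 3 above zero and 3 below, a median of 0.023 beside -0.0398 over all 2952 features, and 0 called by edgeR or DESeq2 (1 at an unadjusted p under 0.05, which 6.1% of all features had). The 4 most abundant were Commd1, Gnas, Mest and Inpp5f, at log2 fold changes of -0.50, -0.08, 0.12 and 0.38. The largest difference among the 6 was that of Nap1l4, a histone chaperone gene, with 3.07, 34.2 and 27.5 CPM in Acly_KD libraries 1 to 3 and 83.7, 36.7 and 30.2 CPM in control libraries 1 to 3. Its groups overlapped, and the log2 fold change was -1.16 (SE 0.66). The Commd1 row is the one read above as Zrsr1, and the Mest row is the one read above as Copg2. The Copg2 row shares 912 bases with Mest on the other strand and was given to no gene in the opposite-strand reading.

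Partners of the imprinted growth pathway were counted in the same way. Of 15 genes of IGF and insulin signalling, 3 were tested in the opposite-strand reading and 0 passed, with 2 at an unadjusted p under 0.05 (8.6% over all genes) and 0 called by DESeq2; their median log2 fold change was -0.50, beside 0.0051 over all genes. Irs1, a substrate of the insulin and IGF1 receptors, had 1180 ± 174 CPM in Acly_KD and 1654 ± 410 CPM in control, with groups that overlapped. Its log2 fold change of -0.50 was called with no filter on low counts and came to 0.0045 with the term for reads opposite to Xist. Irs2, the other substrate, was read through the whole row of a noncoding RNA, with 162 of its 1849 exonic bases opposite to Irs2. Irs2 had 86.6, 86.6 and 27.8 CPM in Acly_KD libraries 1 to 3 and 270, 221 and 87.2 CPM in control libraries 1 to 3. These groups did not overlap, as for 6.61% of all genes with the lower values in Acly_KD, though Acly_KD replicates 1 and 2 lay just under control replicate 3. The log2 fold change was -1.51 (SE 0.51), and edgeR called Irs2 in 3 of 15 alternative settings, among them without control replicate 3 (-1.89) and with no filter on low counts (-1.50). Igfbp7, an IGF binding protein gene, was read through the whole row of a protein-coding gene on the other strand. Of the 4667 exonic bases of that gene, 85 lie opposite to Igfbp7. The value of Igfbp7 was 397 ± 94.1 CPM in Acly_KD and 348 ± 37.9 CPM in control. As deposited, the rows of Igfbp7 and Insr were tested, and 0 passed by edgeR or DESeq2, with 0 at an unadjusted p under 0.05. Of 12 genes listed as factors that keep imprints, 0 could be read as mRNA. Among them was Ctcf, the protein that binds the control region between H19 and Igf2. As deposited 1 was tested, Ctcfl, with a log2 fold change of 0.68 (95% interval -0.51 to 1.86). In the opposite-strand reading the Ctcfl row is given to the gene that faces it, so it is not a measure of Ctcfl mRNA there.

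The genes whose values followed H19 most closely over the 6 libraries were listed among 1135 others with a mean of at least 50 CPM, by Pearson's r of log2 CPM. They were Tardbp (r = 0.969), Serac1 (r = 0.962), Fam98c (r = 0.941), Rarres2 (r = 0.932) and Eps8l3 (r = 0.918). With 6 libraries and this many genes, values of this size describe the libraries only. Tardbp, which encodes an RNA-binding protein, had 117, 160 and 114 CPM in Acly_KD libraries 1 to 3 and 221, 130 and 215 CPM in control libraries 1 to 3. Unlike for H19, the groups overlapped, with Acly_KD replicate 2 above control replicate 2.

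The preparation was compared by marker lists at the genes' own rows, as deposited, which hold reads of the wrong strand. All 10 heart muscle markers had reads, with summed levels of 4864 to 17016 CPM in Acly_KD and 12833 to 15809 CPM in control; the lowest was Acly_KD replicate 1. All 10 were below zero there (median log2 fold change -0.43, beside -0.0398 over all features), with 0 called and 0 at an unadjusted p under 0.05. In the opposite-strand reading 3 of the 10 were tested, and all were above zero with 0 called: Atp2a2 at 0.03 and Myl2 at 0.11, with groups that overlapped, and Ttn at 0.58 (SE 0.14, adjusted p = 0.0731 in edgeR), with groups that did not, as for 8.12% of all genes with the higher values in Acly_KD. The row read as Atp2a2 has 83 of its 4690 exonic bases opposite to that gene. For Myl2 it is 60 of 7351, and for Ttn 453 of 493. Most bases counted as Atp2a2 and Myl2 thus face no exon of these genes. The summed level of 8 fibroblast markers was 16.9 to 26.9 CPM in Acly_KD and 12.9 to 27.2 CPM in control. That of 9 endothelial markers was 24.6 to 97.5 CPM in Acly_KD and 38.8 to 72.8 CPM in control. For 8 pericyte and smooth muscle markers it was 73.7 to 220 CPM in Acly_KD and 142 to 181 CPM in control, and for 8 macrophage and leukocyte markers 75.7 to 96.7 CPM in Acly_KD and 87.4 to 122 CPM in control. The Csf1r row held 161 of the 171 reads of this last list in Acly_KD and 164 of 193 in control. It lies opposite to 873 bases of Hmgxb3 exons and is read as that gene, which is no leukocyte marker. The rows of Myh6, Myl3, Pln and Tagln are likewise read as other genes. Rows with 158 of 1392 and 488 of 3157 exonic bases opposite to Abcc9 and Notch3 were read as these pericyte and smooth muscle markers. Both were tested in the opposite-strand reading. There 1 was above zero and 1 below, with 0 called and groups that overlapped. The own rows of Ptprc and Adgre1, which define leukocytes and macrophages, were at 0 in all libraries. Neither gene has an annotated exon opposite to it, so its mRNA could not be read. The 0 therefore does not show that these cells were absent. The summed levels of the 5 lists overlapped between the groups. The part of other cell types in the values of H19 and Meg3 was not tested.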

How the data were processed

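RNA of 6 libraries was analysed from deposited tables. Per the submitters' processing notes, FastQC, TopHat2, SAMtools, HTSeq and DESeq2 were used on mm10, with no strand setting recorded in the labels. Each deposited table holds raw counts per feature. Rows naming no gene (97.44% to 97.68% of the counts in a table) were left out. Features were matched by identifier to GENCODE M21 on mm10 (45143 of 46078), and exonic bases shared with genes on the other strand were counted.

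In the opposite-strand reading all counts of a nuclear feature went to the gene that faces it. That gene had to hold 80% or more of the shared bases, 50 or more of them, and to have the smaller count or no row. This gave 2973 genes. Counts were given whole, also where most of a feature's exonic bases face no exon of the gene. Both tables were fitted with edgeR 4.0.16 in R 4.3.3 (TMM, robust quasi-likelihood, Benjamini-Hochberg at 0.05, filterByExpr at 10 counts), tested on simulated counts. SE came from the fold change and test statistic. Alternatives were DESeq2 1.42.0, other scalings, filters and rules, a replicate block and each library left out.

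The genes and lists were chosen with earlier results of these data known. Named were the 9 genes and the features opposite to them; members of the wider lists that passed, or else the 4 most abundant in each reading; the 5 genes most like H19; and Acly. H13, Copg2, Nap1l4, Ctcf, Snhg14, Hmgxb3 and the markers fall outside this rule and were named after their values were seen.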

Additional observations from a re-analysis of the deposited data

How the results depend on the processing

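The log2 fold change of H19 kept its direction in all 15 alternatives, from -1.47 to -0.87, and from -1.34 to -0.87 with one library left out; that of Meg3 ran from -1.84 to -1.12. On the scale of the features as deposited, the groups overlapped for H19. H19 could not be read when 200 bases shared with a single gene were required, since its stretches are shorter. Over all genes of the opposite-strand reading, where 3 were higher and 3 lower, edgeR called 0 to 8 higher and 1 to 12 lower with one library left out, the most without Acly_KD replicate 3 and 0 higher without any 1 of the controls, and 12 higher and 18 lower with no filter on low counts. It called 0 higher and 0 lower with a minimum count of 30 and with the term for reads opposite to Xist, and 0 higher when scaled by uniquely aligned reads. DESeq2 called 1 higher, and the rule of 200 bases gave 1 higher. As deposited, where 0 were called, the counts were 2 higher and 1 lower without a filter, and 0 to 23 higher and 0 to 46 lower with one library left out; the 23 and 46 came without Acly_KD replicate 3, beside 1 higher without Acly_KD replicate 1 and 2 lower without control replicate 1. Replicate numbers do not show pairing (r between same-numbered libraries -0.043 to -0.018); with the replicate block 5 genes were called higher and 7 lower, H19 stood at -1.04 and Irs2, called there, at -1.53. Of 26 fold changes followed, 9 changed sign in some setting, Kcnq1ot1 and Igf2r among them. Depth limits the values: H19 rests on 122 reads in Acly_KD and 234 in control, and Meg3 on 21 in Acly_KD and 51 in control.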
